A study of Mus musculus with 10 samples.

Results

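The predicted mouse genes Gm10800, Gm10801, Gm21738, Gm10715, Gm10717, Gm10718, Gm10720, Gm10721, Gm10722 and Gm11168, were followed in total RNA with and without CBL0137. They are gene models that lie in, or match, sequence like the major satellite. They are 10 of the 38293 gene identifiers in the count files, and all 10 were found there. These genes were chosen by name and with their read counts in these libraries already known, so their values under CBL0137 are given as a description, with no test.

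The study was done in wild-type MEF (mouse embryonic fibroblasts, C57BL/6J) and p53-/- MEF (from Trp53tm1Tyj mice), left untreated or given 1 µM CBL0137 for 24 hr, and in lungs of NIH Swiss mice aged 7 weeks, collected 24 hr after an intravenous injection of 5% dextrose or of 60 mg/kg CBL0137. CBL0137 is a small molecule that binds DNA and loosens nucleosomes without breaking DNA. It was dissolved in DMSO for the cells, whose controls were untreated, and in 5% dextrose for the mice. Wild-type MEF and lung had 2 libraries per group (2 mice per group in lung), and p53-/- MEF had 1 library per treatment. The study's methods call the replicates biological, and the labels do not say whether the MEF libraries came from separate cultures, so p-values are read as measuring the spread between these libraries. The sex of the mice is given as female in part of the labels and as male in another part.

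Major satellite is the tandem repeat that fills the pericentromeric heterochromatin of mouse chromosomes. In most cells it is packed with methylated DNA and repressive histone marks and is transcribed at a low level. Genome assemblies hold only small pieces of it, and some of these pieces carry gene models predicted from open reading frames in the repeat. Counts on such models are therefore counts of reads that match repeat-like sequence, and copies of the repeat outside the models cannot be told apart from the models themselves where the sequence is the same.

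In the GRCm38 assembly with the GENCODE M21 annotation, the 10 genes lay at 3 places and all were annotated as protein-coding. Gm10801 was at chr2:98662237-98664083 on the plus strand, and Gm10800 was close by at chr2:98666547-98667301 on the minus strand. Gm21738 was at chr14:19415857-19418930 on the minus strand. The other 7 were on the plus strand at the start of chromosome 9, in the order Gm10722 (from 3000922), Gm11168, Gm10721, Gm10720, Gm10718, Gm10717 and Gm10715 (to 3038316). A long noncoding RNA gene, Gm26870, overlaps all 7 on the opposite strand, at chr9:3000282-3038313. Gm10719 and Gm17535 are 2 further predicted genes of the same cluster that were not among the 10.

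The annotated sequences showed the repeat directly. When a transcript was shifted against itself by 20 to 300 bases, a transcript of Gm26870 had 95.9% identical bases at a shift of 234 bases, against a median of 30.4% over all shifts. Of the 22 annotated transcripts of the 10 genes, 16 had their highest self-identity at the same shift of 234 bases, and all 22 had it between 225 and 237 bases. At the best shift the 22 transcripts had 52.7% to 69.7% identical bases. A smaller peak stood at a shift of 58 bases, with 60.4% identical bases in Gm26870 and 57.6% in Gm10718.

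**Figure D1:**
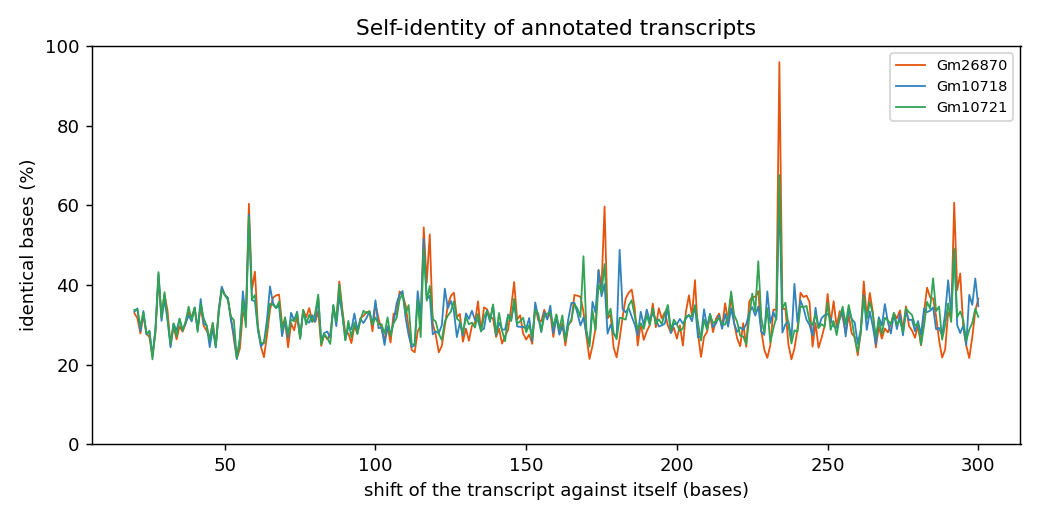
Percentage of identical bases (y axis) when 1 annotated transcript each of Gm26870, Gm10718 and Gm10721 is shifted against itself by the number of bases on the x axis. The highest point of all 3 lines is at 234 bases, with 95.9% in Gm26870, 62.6% in Gm10718 and 67.6% in Gm10721.

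One repeat unit of Gm26870 is printed to show the annotated repeat to which the 10 genes were aligned. It spans chr9:3038077-3038310 on the minus strand and is written 5′ to 3′ on that strand, with capitals for the stretch described next.
Gm26870 unit: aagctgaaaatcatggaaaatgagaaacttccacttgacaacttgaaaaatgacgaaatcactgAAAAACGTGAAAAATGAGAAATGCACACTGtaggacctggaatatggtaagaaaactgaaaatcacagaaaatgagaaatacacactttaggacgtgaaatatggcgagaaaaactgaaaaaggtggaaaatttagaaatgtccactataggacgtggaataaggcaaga
Local alignment to repeated copies of this unit, taken for the 1 transcript of each gene that aligned best, covered 99.2% to 100% of that transcript at 84.2% to 87.8% identity, in each case on the strand opposite to Gm26870. The unit lies within the span of Gm10715. For the chromosome 9 genes, which Gm26870 overlaps, the opposite strand is not an independent result. On their own strand the genes are rich in T, which made up 45.8% to 48.6% of bases against 16.6% to 18.4% for A. Gm10800 and Gm10801 carry this T-rich strand although they point in opposite directions on chromosome 2.

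The longest stretch found in all 10 genes was a single one of 30 bases. It was also in Gm10719 and Gm17535, and its reverse complement was in Gm26870. No other of the 55450 annotated genes held it in either orientation, and it was in 0 of 32851 RefSeq promoters (250 bases before to 50 bases after a gene start) on either strand. The promoters of the 10 genes were not among those searched, so this 0 says nothing about them. It is printed in capitals inside 60 bases of 4 genes, to show how alike the copies are.
Gm10800, chr2:98667087-98667146, minus strand: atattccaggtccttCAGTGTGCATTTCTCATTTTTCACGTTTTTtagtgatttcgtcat
Gm10722, chr9:3001281-3001340, plus strand: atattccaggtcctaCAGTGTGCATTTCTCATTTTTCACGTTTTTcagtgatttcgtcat
Gm10721, chr9:3013295-3013354, plus strand: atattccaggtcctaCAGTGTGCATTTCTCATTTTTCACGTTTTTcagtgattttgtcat
Gm10718, chr9:3023702-3023761, plus strand: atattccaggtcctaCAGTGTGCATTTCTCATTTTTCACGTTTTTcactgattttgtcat
The same capitals were found in Gm10801 at chr2:98662241-98662270 and in Gm21738 at chr14:19417331-19417360, at the edge of an exon in each.

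The genes differed in how much sequence they had to themselves. Of all words of 31 bases in Gm10801, 63.8% were found in no other annotated gene on either strand. The share was 58.0% for Gm10800 and 56.4% for Gm21738, and it fell to 15.2% for Gm10718, 10.7% for Gm10721 and 5.63% for Gm10720. All words shared with another gene were shared within the same 13 genes (the 10 genes, Gm10719, Gm17535 and Gm26870). The files listed 0 reads as aligned to more than 1 place in each of the 10 libraries, and how reads with several matches were treated before counting is not given in the sources used here. Counts of single genes with near-identical copies, in particular Gm10718, Gm10720 and Gm10721, are therefore uncertain. The sum does not depend on how reads were split among the 10 genes, but it does on sharing with genes outside it. Of the words of Gm10720, 88.5% were also in Gm10719, and 69.8% of those of Gm10721 had their reverse complement in Gm26870. Copies outside annotated genes were not searched.

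The libraries held 16579 to 538717 counts on genes, the smallest being replicate 2 of vehicle lung, out of 1458258 to 51320983 reads. Only 0.789% to 1.16% of reads were counted on genes, and the strand setting of the counting is not stated. Genes whose span overlaps a gene on the opposite strand made up 34.7% of the annotated genes in the files and held 76.0% to 86.1% of the counts, so a count listed under a gene cannot be assigned to its named strand. Trp53 itself had 0 counts in 8 of the 10 libraries, 1 count in a CBL0137-treated lung and 5 counts in treated p53-/- MEF, and could not check the knockout label. Summed markers of lung epithelium were at 409 to 784 CPM (counts per library scaled so that 10000 CPM is 1% of gene counts) in the 4 lung libraries and at 0 to 23.2 in the 6 MEF libraries. Of 6 fibroblast markers, Col1a1, Col1a2, Col3a1 and Fn1 had counts in every MEF library, while Thy1 and Pdgfrb had 0 to 2.

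In untreated wild-type MEF the 10 genes together held 200 and 380 counts, which was 0.146% and 0.198% of gene counts. With CBL0137 they held 813 and 3316 counts, or 1.20% and 1.21%. The treated libraries lay above both controls and close to each other. The mean share was 0.172% ± 0.0369 (SD, n = 2) without and 1.21% ± 0.00424 (SD, n = 2) with CBL0137, a ratio of 7.02, and the fitted log2 fold change of the sum was 2.72 (SE 0.217). Without replicate 1 of the untreated libraries it was 2.42, and without replicate 2 it was 2.94. Summed fibroblast markers were lower in the treated libraries, at 186 to 296 CPM against 481 to 886, and their part in the result was not tested. In bulk RNA, fewer cells of a type and less RNA per cell cannot be told apart.

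In lung the 10 genes held 558 and 52 counts in the vehicle libraries, which was 0.278% and 0.314% of gene counts. After CBL0137 they held 2083 and 1832 counts, or 1.15% and 0.751%. Both treated lungs lay above both vehicle lungs, and the treated pair differed from each other by more than counting error, with 95% Wilson intervals of 1.10% to 1.20% and 0.718% to 0.786%. The ratio of the mean shares was 3.21, from 0.296% ± 0.0252 (SD, n = 2) to 0.951% ± 0.282 (SD, n = 2). The fitted log2 fold change of the sum was 1.88 (SE 0.403), and it was 1.90 without the shallow vehicle library. Summed lung epithelium markers overlapped between the groups, at 488 to 784 CPM with vehicle and 409 to 668 with CBL0137.

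In p53-/- MEF the share was 0.276% (475 counts) in the untreated library and 6.33% (34118 counts) in the treated library. The ratio of shares was 23.0, with a 95% interval of 21 to 25.2 that covers counting error only. Wilson intervals and counting limits everywhere here cover counting error and not the spread between samples. With all reads of the file as the denominator the ratio was 30.6. There was no replicate check in p53-/- MEF, and its larger ratio was not tested against that of wild-type MEF. Summed fibroblast markers were at 267 CPM in the untreated and 128 in the treated library.

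Ordered by share, untreated wild-type MEF stood lowest, followed by untreated p53-/- MEF and vehicle lung, then treated lung, treated wild-type MEF and treated p53-/- MEF. The untreated p53-/- library, with an interval of 0.252% to 0.301%, could not be told apart from the vehicle lungs. The higher of the treated lungs, with an interval of 1.10% to 1.20%, overlapped the lower of the treated wild-type libraries, with 1.12% to 1.29%. The share in treated p53-/- MEF was the highest of the 10 libraries, and the next was 1.21%.

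**Figure D2:**
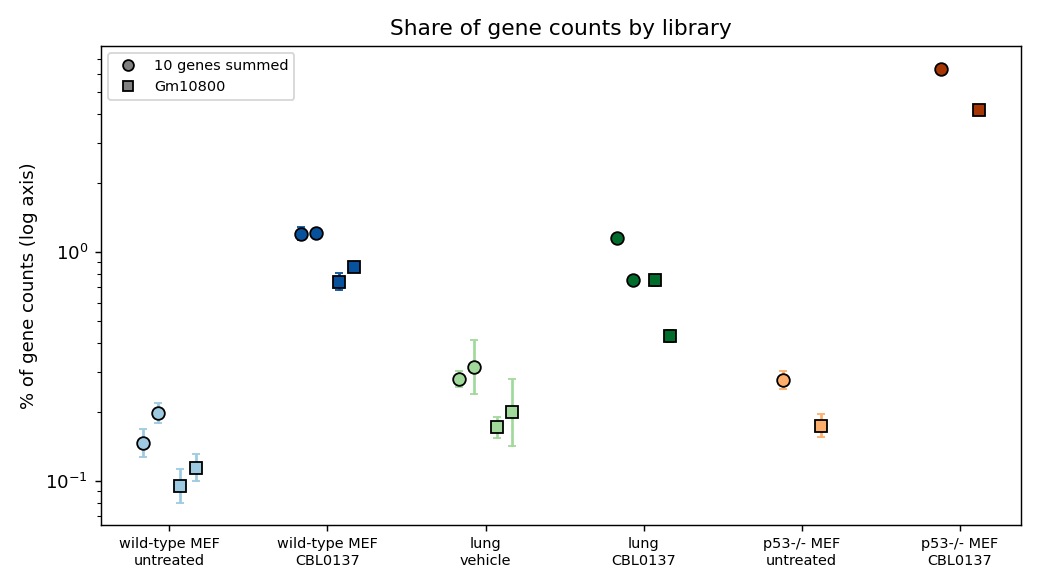
Share of gene counts (y axis, %, log axis) of the 10 genes summed (circles) and of Gm10800 alone (squares) in each of the 10 libraries, by group on the x axis, with 95% Wilson intervals. Treated libraries sit above the controls of the same cells or tissue, from 0.146% and 0.198% to 1.20% and 1.21% in wild-type MEF and up to 6.33% in p53-/- MEF for the sum.

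Gm10800 carried most of the counts. In wild-type MEF it held 130 and 219 counts without treatment (0.0948% and 0.114% of gene counts) and 502 and 2356 with CBL0137 (0.743% and 0.859%). In lung it held 343 and 33 counts with vehicle (0.171% and 0.199%) and 1360 and 1047 with CBL0137 (0.751% and 0.429%). In p53-/- MEF it held 300 counts (0.174%) untreated and 22461 (4.17%) treated. Gm10800 was thereby the gene with the most counts of all in treated p53-/- MEF, where it had ranked 75 without treatment. Its rank went from 157 and 122 to 17 and 15 in wild-type MEF, and from 62 and 55 to 13 and 20 in lung. The ratio of its mean shares was 7.67 for wild-type MEF, 3.19 for lung and 24.0 for p53-/- MEF (counting interval 21.4 to 26.8), and the fitted log2 fold change was 2.85 (SE 0.184) in wild-type MEF and 1.88 (SE 0.407) in lung.

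Gm10801, the neighbour of Gm10800 on the other strand, had 25 and 78 counts in the untreated libraries of wild-type MEF and 103 and 393 in the treated ones. Its lung counts were 78 and 8 with vehicle and 292 and 310 with CBL0137. In p53-/- MEF it had 57 counts untreated and 2267 treated. Both treated libraries were above both controls in share in wild-type MEF and in lung. Of all genes with a mean count of at least 10, 31.4% and 14.3% were likewise above. The ratio was 5.02 for wild-type MEF, 3.31 for lung and 12.7 for p53-/- MEF. The counting interval of the last was 9.79 to 16.6, beside 21.4 to 26.8 for Gm10800, in 1 library per treatment and with no test of the difference.

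Gm21738 on chromosome 14 was the least even of the high genes. Without treatment wild-type MEF gave it 18 and 51 counts, and the treated libraries gave 131 and 129, which was 0.194% and 0.0470% of their gene counts. The treated libraries thus differed in share although their counts were alike, and the lower one was still above both controls (0.0131% and 0.0266%). In lung it had 67 and 2 counts with vehicle and 156 and 290 with CBL0137. In p53-/- MEF it went from 78 counts to 6793, with a ratio of 27.9 (counting interval 22.3 to 34.8). The fitted log2 fold change was 2.41 (SE 0.733) in wild-type MEF and 2.0 (SE 0.436) in lung.

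**Figure D3:**
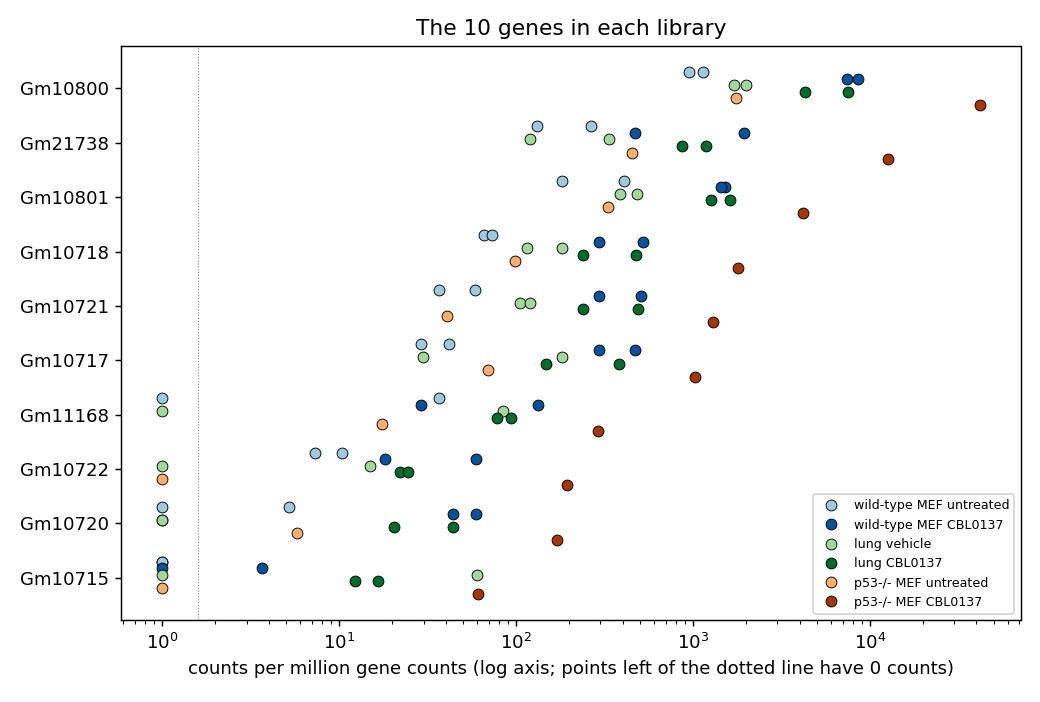
CPM (x axis, log axis; 10000 CPM is 1% of gene counts) of each of the 10 genes (rows, ordered by their counts over all libraries) in each of the 10 libraries, coloured by group, with libraries at 0 counts drawn left of the dotted line. Treated p53-/- MEF is the rightmost point in each row, and in the row of Gm10715 it is close to a vehicle lung library that has 1 count.

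In the chromosome 9 cluster, Gm10718, Gm10721 and Gm10717 had enough counts to follow. Gm10718 had 9 and 14 counts in the wild-type controls against 20 and 143 with CBL0137, and 17 against 962 counts in p53-/- MEF. Gm10721 had 8 and 7 against 20 and 140 counts in wild-type MEF, and 7 against 697 in p53-/- MEF. Gm10717 had 4 and 8 against 20 and 129 counts in wild-type MEF, and 12 against 552 in p53-/- MEF. All 3 were higher in both treated wild-type libraries than in both controls, as were 31.4% of all genes with a mean count of at least 10. Gm10721 and Gm10717 reached that mean only through their treated libraries. The ratios of mean shares were 5.90 for Gm10718, 8.51 for Gm10721 and 10.8 for Gm10717. In p53-/- MEF the ratios of shares were 18.1 (counting interval 11.2 to 29.3), 31.9 (15.1 to 67.1) and 14.7 (8.31 to 26.1) in the same order. They are smaller than the raw counts imply, because the treated p53-/- library held 538717 gene counts against 172386 in the untreated one. Fitted log2 fold changes in wild-type MEF were 2.51 (SE 0.381) for Gm10718, 3.07 (SE 0.428) for Gm10721 and 3.34 (SE 0.413) for Gm10717.

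In lung, Gm10718 had 23 and 3 counts with vehicle and 86 and 58 with CBL0137, and Gm10721 had 21 and 2 against 88 and 58. In share, neither gene overlapped between the groups, with ratios of 2.41 and 3.21. Of all genes with a mean count of at least 10, 14.3% also lay above both vehicle lungs in both treated lungs. For the 3 and 2 counts of the shallow vehicle library, the Wilson intervals were 0.00615% to 0.0532% and 0.00331% to 0.0440%. Both intervals include the share of the lower treated lung, 0.0238% for each gene. Gm10717 had 6 and 3 against 69 and 36 counts and did overlap, because its 3 counts in the shallow vehicle library came to 181 CPM against 148 in the lower treated lung.

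The remaining 4 genes of the cluster were sparse. Gm11168 had 5 and 0 counts in the wild-type controls against 9 and 8 with CBL0137, and 17 and 0 against 17 and 19 in lung. Its groups overlapped in both. Gm10722 had 1 to 6 counts in 7 of the 8 libraries of wild-type MEF and lung and 0 in the other. Gm10720 had 0 to 1 count in the 4 control libraries of wild-type MEF and lung and 4 to 12 in the 4 treated ones. Gm10715 had 0 to 3 counts in these 8 libraries. In treated p53-/- MEF all 4 were well above 3 counts, the floor that a count of 0 allows. Gm10722 went from 0 to 104 counts, at least 11.1-fold higher against that floor, and Gm10715 from 0 to 33, at least 3.52-fold higher. Gm11168 went from 3 to 157 counts, a ratio of 16.7 (counting interval 5.34 to 52.5), and Gm10720 from 1 to 92, a ratio of 29.4 (counting interval 4.10 to 211).

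Read against all genes, the shares behaved as follows. In wild-type MEF 6 of the 10 genes had a mean count of at least 10, and all 6 were higher in both treated libraries than in both controls and at least 2-fold higher in mean. Of all genes with that mean count, 31.4% lay above both controls in both treated libraries and 13.1% were also at least 2-fold higher. In lung 7 genes had that mean count and 5 of them lay above both controls and at least 2-fold higher (the exceptions were Gm10717 and Gm11168), against 14.3% and 6.05% of all genes. In p53-/- MEF 10 of 10 were at least 2-fold higher, against 28.0% of all genes. Genes with counts in both groups had a median log2 ratio of 0.12 over all genes and 2.77 over 6 of the 10 in wild-type MEF, of 0.0048 and 1.67 (7 genes) in lung and of 0.16 and 4.38 (8 genes) in p53-/- MEF. The filter takes the mean over control and treated libraries, so a gene with few control counts passes only through its treated ones. This holds for Gm10715, Gm10720, Gm10721, Gm10722 and Gm11168 in p53-/- MEF. In wild-type MEF it holds for Gm10717 and Gm10721, and in lung for Gm10717 and Gm11168. That their mean counts were higher with CBL0137 follows from the filter. The 10 genes were also chosen with these contrasts known, so nothing is read from these shares or medians.

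Levels as CPM per kb of exon allowed the genes to be ranked. Gm10800 ranked first in each of the 6 groups, from 1582 ± 207 (SD, n = 2) in the untreated wild-type libraries to 63172 with CBL0137 in p53-/- MEF. Gm10801 was next in wild-type MEF and lung, treated or not, and Gm21738 in p53-/- MEF with and without CBL0137. In untreated p53-/- MEF, however, the levels of Gm21738 (664) and Gm10801 (656) were alike, while in treated p53-/- MEF they were 18516 and 8350. Gm10718 and Gm10721 followed, and the other 5 were below 297 in each group.

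The split of counts between the 3 places was similar across libraries for chromosome 2 and less so for the others. Gm10800 and Gm10801 together held 72.5% to 82.9% of the counts of the 10 genes in each library, and Gm10800 alone 57.2% to 71.0%. Gm21738 held 16.1% in one treated wild-type library (Wilson interval 13.7% to 18.8%) and 3.89% in the other (3.28% to 4.60%). In treated lung it held 7.49% (6.44% to 8.70%) and 15.8% (14.2% to 17.6%). Replicates of a group therefore differed in the part of Gm21738 by more than counting error, in opposite order to the chromosome 9 genes, which held 9.47% and 13.2% in the same treated wild-type libraries. The highest part of Gm21738 was 19.9%, in treated p53-/- MEF.

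**Figure D4:**
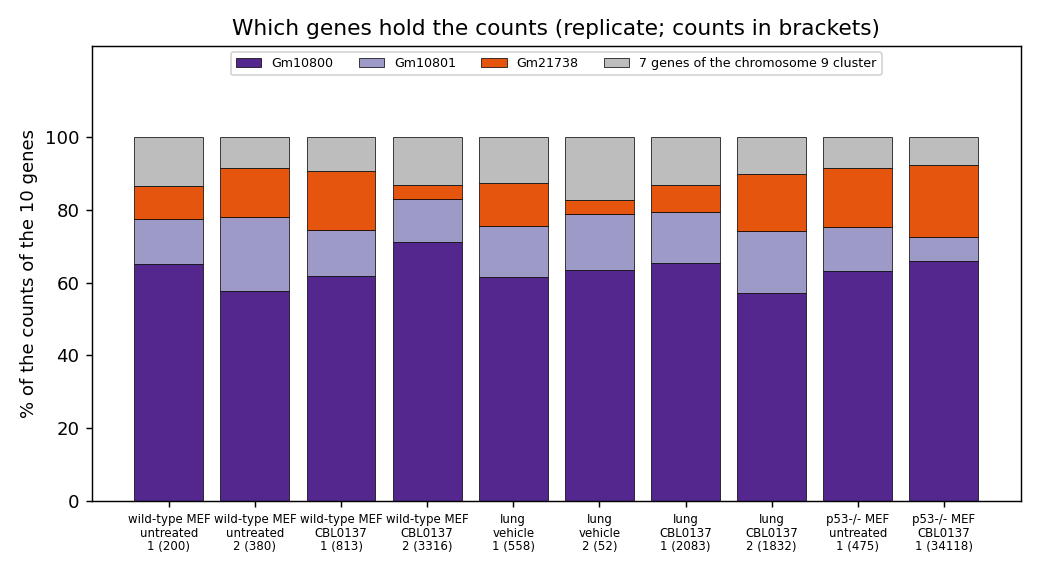
Percentage of the counts of the 10 genes (y axis) held by Gm10800, Gm10801, Gm21738 and the 7 genes of the chromosome 9 cluster, with 1 bar per library and the summed counts in brackets. The part of Gm10800 stays between 57.2% and 71.0%, while the part of Gm21738 runs from 3.85% to 19.9%.

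Gm26870, the noncoding gene opposite the cluster, had more counts than the 9 plus-strand genes of the cluster together in 7 of the 10 libraries. Its counts were 24 and 74 against 111 and 875 with CBL0137 in wild-type MEF, 134 and 21 against 651 and 287 in lung, and 27 against 3041 in p53-/- MEF. In share, its groups did not overlap in wild-type MEF (ratio 8.62). There, 31.4% of all genes with a mean count of at least 10 also lay above both controls in both treated libraries. The groups of Gm26870 did overlap in lung (ratio 2.47), and its ratio in p53-/- MEF was 36.0 (counting interval 24.7 to 52.6). As a part of all counts of the cluster on both strands Gm26870 made up 42.1% and 66.1% against 53.9% and 62.3% with CBL0137 in wild-type MEF. In lung the values were 62.0% and 70.0% against 66.3% and 56.6%, and in p53-/- MEF 36.5% against 48.9%. Counts listed on both strands of the repeat were thus higher in the treated libraries of wild-type and p53-/- MEF. Gm10719, the plus-strand neighbour, had 6 and 5 against 16 and 78 counts in wild-type MEF and 7 against 537 in p53-/- MEF. In share the ratios were 7.47 and 24.5 (counting interval 11.6 to 51.7). Of the other annotated genes within 100 kb, Gm13806, 4930433N12Rik and Gm7352 had 0 counts in all 10 libraries and Gm9637 had 1 count in one.

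**Figure D5:**
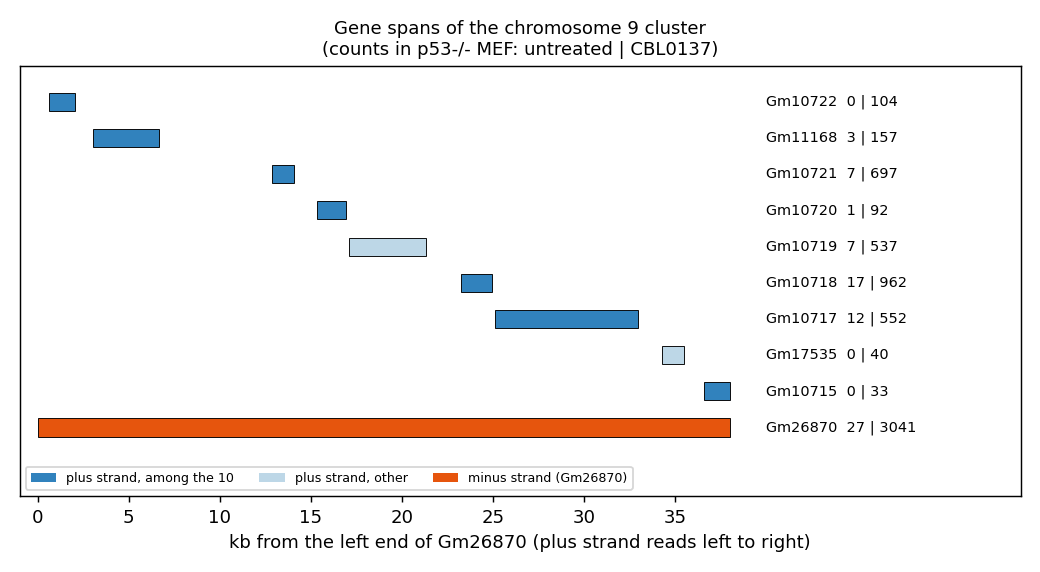
Spans of the genes of the chromosome 9 cluster, in kb from the left end of Gm26870 (x axis), with plus-strand genes in blue (dark for those among the 10) and Gm26870, on the minus strand, in orange. The numbers at the right are counts in untreated and treated p53-/- MEF, which run from 0 and 33 for Gm10715 to 17 and 962 for Gm10718 and 27 and 3041 for Gm26870. They are not scaled for depth, and the treated library held 538717 gene counts against 172386.

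The levels without CBL0137 were compared between lung and wild-type MEF, a contrast not used in choosing the genes, though it shares its libraries with the treatment comparisons. Of the 10 genes, 5 passed the filter on low counts, and 1 of them, Gm10800, was higher in vehicle lung than in untreated wild-type MEF (log2 fold change 0.65, SE 0.214, adjusted p = 0.0169 by edgeR's quasi-likelihood test, corrected after Benjamini and Hochberg over all 1852 genes). Both lungs were above both MEF libraries, at 0.171% and 0.199% against 0.0948% and 0.114%. Among all genes tested 38.2% were called, and the 1 of 5 is below that share. The others did not pass, with log2 fold changes of 0.33 (SE 0.347) for Gm10801, 0.47 (SE 0.411) for Gm21738, 0.74 (SE 0.530) for Gm10718 and 1.13 (SE 0.555) for Gm10721. The call of Gm10800 was lost with DESeq2 (adjusted p = 0.191), without the filter, with all 10 libraries in one fit, and without replicate 1 of either group (adjusted p = 0.311 for MEF and 0.189 for lung). Gm26870 was also higher in lung (log2 fold change 1.32, SE 0.311, adjusted p = 0.00107 in edgeR's test). Its call was not checked under the alternatives, which covered the 10 genes only. Tissue, mouse strain, culture and the vehicle injection given to the lung mice differ together here and cannot be told apart.

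Untreated p53-/- MEF were compared with untreated wild-type MEF in a fit of the 6 MEF libraries, in which the lone p53-/- library is assumed to vary like the wild-type pairs. None of the 10 genes passed (0 of 10 in edgeR and 0 in DESeq2, with 1 at an unadjusted p under 0.05 in edgeR), and of all 2995 genes tested 0.0668% were called. Gm10800 had a log2 fold change of 0.66 (SE 0.255, adjusted p = 0.807 in edgeR's test), Gm10801 of 0.06 (SE 0.435) and Gm21738 of 1.08 (SE 0.667). All 10 genes entered this fit, but Gm10715, Gm10720, Gm10722 and Gm11168, with 0 to 5 counts in the 3 untreated libraries, passed the filter on low counts only through treated ones. With 1 p53-/- library few genes could pass, and the count of 0 does not show that the untreated cells had the same levels.

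The genes whose pattern over the 10 libraries was most like that of the summed counts were sought among 2074 other genes with a mean count of at least 10, by Pearson's r of log2 CPM. The points share library depth, and r is a description. Gm10719 of the same cluster came first (r = 0.967), followed by Dnajc14 (0.891), Gm26648 (0.887), Gm26870 (0.876) and Gm17035 (0.865). Dnajc14 encodes a DnaJ-type chaperone, and each of the 5 has an annotated gene on the opposite strand. Dnajc14 had 69 counts in untreated and 758 in treated p53-/- MEF and 43 and 60 against 38 and 148 in wild-type MEF. These counts are not scaled for depth. In the same order, the libraries held 172386 and 538717 gene counts in p53-/- MEF, and 137150 and 191972 against 67587 and 274300 in wild-type MEF.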

How the data were processed

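Total RNA depleted of ribosomal RNA (TruSeq Stranded Total RNA with Ribo-Zero) was sequenced in 10 libraries of 6 groups. Per the labels, the authors aligned reads to GRCm38 (mm10) with TopHat2 2.0.9 and deposited raw read counts per gene, in the form HTSeq writes, without normalization. The strand setting was not given in the sources used here. Of the 38293 identifiers, 95.1% are in GENCODE M21.

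Groups came from the sample labels. Shares were taken over the counts on genes, and reads on no gene (98.8% to 99.2% of reads) were left out. Fitted fold changes came from edgeR 4.0.16 in R 4.3.3 on the whole table, with TMM, and the procedure was tested on simulated data. The filter was filterByExpr set to at least 10 counts and a total of at least 15. The test was the two-sided quasi-likelihood test with Benjamini-Hochberg adjustment at 0.05. Each SE is the size of the log2 fold change divided by the square root of the F statistic of that test. Ratios of shares, and all ratios of treated to untreated p53-/- MEF, were taken without a fit. Alternatives were DESeq2 1.42.0, other library sizes, no filter, all libraries in one fit, each replicate left out and the sum without Gm10800. Sequences came from the GENCODE M21 transcripts and were aligned with Biopython 1.88. Correlations used log2 CPM with a prior count of 2. No protein sequence was used here.

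The 10 genes, the marker lists and the list of heterochromatin factors were chosen with earlier results of these data known. Beyond the 10, the genes named are annotated genes within 100 kb, the 5 most alike in pattern, Trp53, cell type markers used to check the labels and up to 4 heterochromatin factors. The deposited counts give 3 counts as a floor of 0.000557% to 0.0181% of gene counts per library. Comparisons between groups rest on 1 to 2 libraries per group.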

Additional observations from a re-analysis of the deposited data

How the results depend on the processing

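For the sum of the 10 genes, the edgeR fit gave 2.72 for wild-type MEF and 1.88 for lung on the log2 scale. The 4.52 for p53-/- MEF is a log2 ratio of shares, taken without a fit. As such a ratio, wild-type MEF had 2.81 and lung 1.68. The direction of the fitted values and of the p53-/- ratio was the same under each alternative run. Leaving out single libraries moved the fitted value between 2.42 and 2.94 in wild-type MEF and between 1.45 and 2.23 in lung. Without Gm10800 the sum gave 2.48 in wild-type MEF, and with all reads of the file as library size it gave 4.93 in p53-/- MEF. Other library sizes, DESeq2, no filter and a fit of all 10 libraries moved the values in wild-type MEF and lung by less than 1 SD between replicates (0.220 and 0.320 on the log2 scale). The call of 1 gene between vehicle lung and untreated wild-type MEF went to 0 with DESeq2, with no filter, with all 10 libraries in one fit and when Gm10800 was not counted, and ran from 0 to 1 when single libraries were left out. The 1 call without replicate 1 of untreated wild-type MEF was Gm11168 (adjusted p = 0.00325 in edgeR), whose remaining MEF control had 0 counts, and not Gm10800. The cause was not tested. Between untreated p53-/- and wild-type MEF 0 genes were called under each alternative. No paired analysis was possible because the labels give no replicate numbers. Depth limits Gm10715, Gm10720, Gm10722 and Gm11168 most, and no library can be left out in p53-/- MEF.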

Other observations

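A list of factors of heterochromatin and DNA methylation, with FACT among them, had few counts in these libraries. Only 0.789% to 1.16% of reads were counted on genes, and counts cannot be assigned to the named strand. The counts below therefore do not show how strongly these factors are expressed. All 24 listed factors were in the files, but together they held 1 to 164 counts per library. They include histone methyltransferases, HP1 proteins, DNA methyltransferases and the subunits of FACT, a histone chaperone. Their sum was at 292 to 297 CPM in the untreated libraries of wild-type MEF against 233 to 266 with CBL0137, and at 302 against 304 in p53-/- MEF. In lung it ran from 60.3 to 349 with vehicle, the lowest being the shallow library with 1 count, and from 182 to 303 with CBL0137. Suv39h2, a histone H3 lysine methyltransferase of pericentromeric chromatin, had the most counts, with 5 and 5 against 8 and 11 with CBL0137 in wild-type MEF. Dnmt1, the maintenance DNA methyltransferase, had 6 and 7 against 0 and 4 counts. Dnmt3b had 0 counts in all 10 libraries.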
